A study of Mus musculus with 6 samples.

Results

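The regions described here are places of the mouse genome that lay far from every annotated gene and were recovered by both sets of probes against the long noncoding RNA Tug1, though not in every pulldown. Peaks of 4 pulldown libraries were joined wherever they overlapped by at least 1 bp. A joined region on chromosomes 1 to 19 was kept when it held a peak of at least 1 even and at least 1 odd library but not of all 4, and when its centre lay more than 5 kb from every gene span of any kind. This left 2119 regions of 113114 in the whole series, or 5.71% of the 37089 regions of any library set that lay as far from genes. The members were thus chosen by the overlap of the authors' peaks and by position, and their library sets and scores are given as description. Regions of this second, wider set are called gene-far regions below.

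The cells were cultured mouse podocytes, the epithelial cells that wrap the capillaries of the kidney's filter, immortalised with a temperature-sensitive SV40 T antigen. They were expanded at 33 °C, kept for 10 days at 37 °C to differentiate, and used between passages 10 and 12. Glutaraldehyde fixed the nuclei, and their sheared chromatin was incubated with the even or the odd part of 48 biotinylated probes along Tug1 (ChIRP-seq). The 2 even libraries (replicates 1 and 2), the 2 odd libraries (replicates 1 and 2) and 2 libraries of input DNA came from the same kind of untreated cell. No genotype, treatment or control probe set separated the groups, and all comparisons are between probe sets or between replicates of 1 cell line. Input DNA entered only through the authors' peak calling, input 1 for both replicates 1 and input 2 for both replicates 2. The assay recovers DNA and measures no expression, so the podocyte label could not be set against marker genes.

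ChIRP uses short oligonucleotides that pair with an RNA to pull out that RNA with the chromatin crosslinked to it. DNA that a probe pairs with directly can also be recovered, and because the even and odd sets share no probe, a place found with both is the usual requirement for a candidate binding site of the RNA. Sequence far from genes holds many of the genome's distal enhancers, which can act on promoters over long distances, and also much of its repeated DNA, where short reads are hard to place. Tug1 is found in both nucleus and cytoplasm and has been studied in podocytes in connection with mitochondrial function.

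The even-odd regions far from genes were mostly places shared by 1 even and 1 odd library, and even replicate 1 took part in most of them. Peaks of 2 libraries made up 1444 regions (68.1%) and peaks of 3 libraries 675 (31.9%). Even replicate 1 was present in 1794 regions (84.7%), odd replicate 2 in 1354 (63.9%), odd replicate 1 in 1121 (52.9%) and even replicate 2 in 644 (30.4%). The most frequent set was even replicate 1 with odd replicate 2, at 668 regions, followed by even replicate 1 with odd replicate 1, at 506. Even replicate 2 with odd replicate 2 gave 171 regions, and even replicate 2 with odd replicate 1 gave 99. Of the sets of 3, even replicate 1 with both odd libraries was the most frequent, at 301 regions, and even replicate 2 with both odd libraries the least, at 55. Both even libraries were joined by odd replicate 1 at 160 regions and by odd replicate 2 at 159. The number of regions rests on single libraries, since leaving out even replicate 1 left 636, odd replicate 2 left 1115, odd replicate 1 left 1353 and even replicate 2 left 1789.

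**Figure D1:**
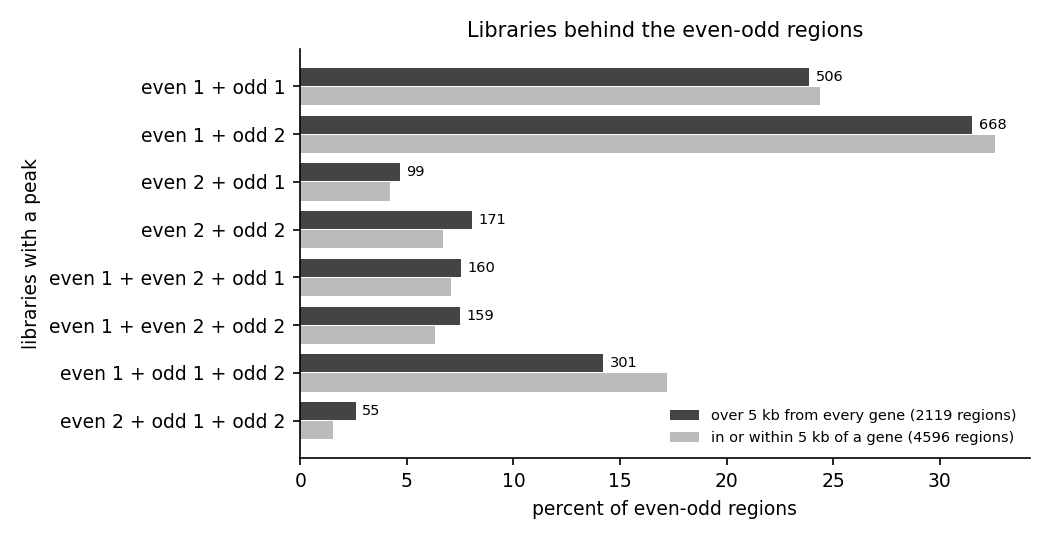
Percent of even-odd regions (x axis) in each set of libraries with a peak (y axis), dark bars for the 2119 regions over 5 kb from every gene (numbers beside the bars) and light bars for the 4596 even-odd regions in or within 5 kb of a gene. The sets with even replicate 1 and a single odd library were the longest bars in both positions.

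The 4 lists differ in length, so each pair is given as a share of both of its lists. Regions with peaks of even replicate 1 and odd replicate 1, alone or with 1 other library, were 7.57% of the gene-far regions of the even and 11.0% of those of the odd library. For even replicate 1 with odd replicate 2 the shares were 8.83% and 9.68%. For even replicate 2 they were 3.56% and 3.57% with odd replicate 1, and 4.36% and 3.30% with odd replicate 2. These shares leave out the 224 gene-far regions of all 4 libraries, which hold every pair. With them the shares for even replicate 2 were 6.09% and 6.12% with odd replicate 1 and 6.899% and 5.23% with odd replicate 2. For even replicate 1 they were then 9.32% and 13.5% with odd replicate 1 and 10.6% and 11.6% with odd replicate 2. By either count the shares of even replicate 2 were the lower ones with both odd libraries. Of the gene-far regions of each library, 14.0% of even replicate 1, 7.30% of even replicate 2, 12.7% of odd replicate 1 and 11.6% of odd replicate 2 were even-odd regions. The mean was 10.7% ± 4.77 (SD, n = 2) for even and 12.2% ± 0.795 (SD, n = 2) for odd probes, and 13.4% ± 0.921 (SD, n = 2) for replicates 1 and 9.46% ± 3.06 (SD, n = 2) for replicates 2. Every even-odd region counts in both probe sets and was chosen by this overlap, so these shares carry no test.

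Libraries with the same replicate number had been called against the same input. Among regions of 2 libraries, 677 (46.9%) had libraries of the same number and 767 (53.1%) of different numbers. That share was 18.9% without odd replicate 1 and 84.4% without odd replicate 2, because only 1 odd library then remained to pair with the frequent even replicate 1.

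Even-odd regions at other positions give the scale for these counts. Among all joined regions on chromosomes 1 to 19, 6.33% had even and odd peaks without being in all 4 libraries, and this share was 5.71% far from genes, 6.94% outside genes but within 5 kb of one, 6.52% in protein-coding genes, 6.67% in lncRNA genes and 8.50% in genes of other kinds. Regions of 3 libraries made up 31.9% of even-odd regions far from genes, 32.8% of those within 5 kb, 32.0% of those in protein-coding genes, 31.4% of those in lncRNA genes and 34.7% of those in other genes. Even replicate 2 was present in 30.4% of the even-odd regions far from genes and 29.1% of those outside genes but within 5 kb. It was in 23.8% of those in protein-coding genes, 24.2% in lncRNA genes and 56.5% of the 147 in other genes. Even replicate 1 was present in 84.7%, 84.6%, 89.3%, 87.2% and 67.3% in the same order. For both even libraries the regions far from genes were thus close to those outside genes but within 5 kb. Since the same overlaps chose the regions, these shares are a description with no test.

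Within a region the even and odd peaks lay close on top of one another. Overlap chose the regions and the best even-odd pair of each was taken, so these values are a description with no test. Regions of 3 libraries offer more pairs to choose from, and odd replicate 1 has shorter peaks (median 247 bp, against 407 bp in odd replicate 2). The best even-odd pair overlapped by a median of 276 bp (quartiles 225 and 374), and the overlap took a median of 98.9% of the shorter peak. In 947 regions (44.7%) the shorter peak lay wholly inside the longer, and in 18 (0.849%) the overlap was under 10% of it. Peak centres were a median of 68 bp apart, and within 100 bp of each other in 1366 regions. Where 3 libraries met, 652 of 675 regions (96.6%) had at least 1 base covered by all 3. Centres lay closest in regions with both odd libraries, where they were a median of 39.5 bp apart with even replicate 1 and 35.5 bp apart with even replicate 2. They lay farthest apart between even replicate 2 and odd replicate 2 alone, with 157.5 bp between centres and 83.8% of the shorter peak covered. The regions had a median width of 478 bp (quartiles 416 and 600), against 349 bp for gene-far regions of 1 library. A joined region is at least as wide as each of its peaks, and the lists also differ in peak width. How much either adds to this difference was not tested.

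Scores in the replicate 2 lists, the lists in which few scores reach 3100, were higher in regions of 3 libraries than in regions of 2. The score comes from the same comparison with input that chose the regions, so it is given with no test and only within a list. In even replicate 2 the median score was 219.6 in regions of 2 libraries, 336 in regions of 3, 256 in gene-far regions of this library alone and 470.5 in the 224 gene-far regions of all 4 libraries. In odd replicate 2 the medians were 287, 339, 209 and 464 in the same order. Even-odd regions of 2 libraries therefore scored below single-library regions in even replicate 2 and above them in odd replicate 2. The low scores in even replicate 2 went with the set it forms with odd replicate 2 alone, with a median of 193 there and 168 in odd replicate 2, against 278 with odd replicate 1 alone. Outside the dense stretches described below, the medians of that set were 218 in even replicate 2 and 189 in odd replicate 2. Even replicate 2 with odd replicate 1 alone then had 281. In the replicate 1 lists the score piled up at 3100, which 86.2% of the even-odd regions of even replicate 1 and 99.6% of those of odd replicate 1 reached or passed.

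**Figure D2:**
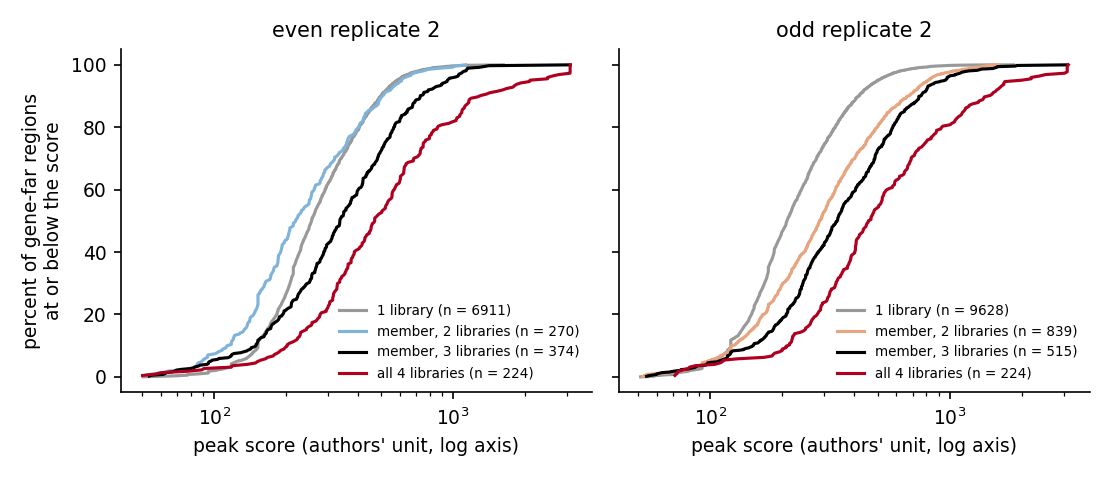
Cumulative percent of gene-far regions (y axis) at or below a peak score (x axis, log scale, the authors' unit) in even replicate 2 (left) and odd replicate 2 (right), for regions of 1 library, even-odd regions of 2 and of 3 libraries, and regions of all 4. The median of 2-library regions lies left of the single-library median in even replicate 2 (219.6 against 256) and right of it in odd replicate 2 (287 against 209).

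Ranked by their lowest percentile of score over the libraries that held them, the leading regions of 3 libraries included 3 of 10 beside immune signalling genes. The region at chromosome 11, 82151343 to 82151959 (mm10), lay 25015 bp from Ccl1, a chemokine gene. It scored 3100 in even and odd replicate 1 and 1416 in even replicate 2, and the nearest peak of odd replicate 2, the library it lacked, was 44031 bp away. The region at chromosome 8, 94734788 to 94735252, lay 10.7 kb from Ccl22, another chemokine gene. It scored 3100 in both replicates 1 and 1520.2 in odd replicate 2, with the nearest peak of even replicate 2 6221 bp away. Il12b, which codes for a cytokine subunit, lay 7.09 kb from chromosome 11, 44392743 to 44393202, a region with a score of 1305 in odd replicate 2. No list of immune genes was set for study, so this describes 3 single regions and no theme.

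The others of these 10 lay beside genes of varied roles. At chromosome 2, 71190711 to 71191156, 20.7 kb from the dynein chain gene Dync1i2, even and odd replicate 1 scored 3100 and odd replicate 2 scored 1574. At chromosome 14, 8181327 to 8182030, 8.38 kb from Pdhb, a subunit gene of mitochondrial pyruvate dehydrogenase, both replicates 1 scored 3100 and even replicate 2 scored 1348. The nearest peak of odd replicate 2, the library this region lacked, was 5649 bp away. Only the region at chromosome 12, 33407597 to 33410388, 7.72 kb from Efcab10, reached 3100 in even replicate 2, and it was 2792 bp wide. At chromosome 16, 69603596 to 69604525, 192 kb from the lncRNA gene 4930428D20Rik, the score was 3100 in odd replicate 2 as well as in both replicates 1. The same gene-free interval of chromosome 16 held another of the 10, at 69176370 to 69176787, 176 kb from the pseudogene Gm18496, with 1202 in odd replicate 2. The last 2 lay 39.9 kb from the lncRNA gene 4930402D18Rik on chromosome 15 (61007007 to 61007478, 1543 in odd replicate 2) and 43.1 kb from Gm30999 on chromosome 13 (64012990 to 64013410, 1334 in odd replicate 2). All 10 tied on their lowest percentile, that of a score of 3100 in even replicate 1, and were ordered by their mean percentile. That order favours sets with odd replicate 1, where 3100 is the top percentile, so the library sets of these 10 follow from the ranking.

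The even-odd regions lay a median of 23.3 kb from the nearest gene (quartiles 12.1 and 54.3 kb), against 26.9 kb for all gene-far regions. The nearest protein-coding gene was a median of 74.2 kb away, against 93.8 kb, and more than 500 kb away for 223 regions (10.5%, against 13.7%). By distance, 6.06% of gene-far regions were even-odd at 5 to 10 kb from a gene, 6.32% at 10 to 20 kb and 6.04% at 20 to 50 kb. The share was 4.76% at 50 to 100 kb, 5.15% at 100 to 200 kb and 4.16% at 200 to 500 kb, and beyond that 4 of 67 regions were even-odd. The shares of the 3 nearer classes lay above the 5.71% of all gene-far regions and those of the next 3 below it. Their Wilson intervals cover counting error only. They held 5.71% at 5 to 10 kb (5.52 to 6.65) and 20 to 50 kb (5.59 to 6.52). The interval at 100 to 200 kb (4.50 to 5.88) held it too. The interval at 10 to 20 kb (5.81 to 6.87) lay above it. Those at 50 to 100 kb (4.25 to 5.32) and 200 to 500 kb (3.29 to 5.24) lay below it. The dense stretches described below are included, and shares by distance are not given without them.

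Lying closest were the regions at the limit of the rule. Just beyond 5 kb were regions 5013 bp from Hltf (chromosome 3, 20052591 to 20053000), 5032 bp from Klhl38 (chromosome 15, 58309405 to 58309677) and 5041 bp from Tango6 (chromosome 8, 106677645 to 106678409). Just inside it, and so left out, were even-odd regions 4996 bp from the lncRNA gene Gm46990, 4992 bp from Otor and 4958 bp from the lncRNA gene Gm34730. Both sides of the limit held regions of even replicate 1 with odd replicate 2 (3100 and 814 at Hltf, 3100 and 527 at Gm46990) and of even replicate 2 with odd replicate 1 (316 and 3100 at Tango6, 521 and 3100 at Otor).

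Farthest from any gene was a region of 3 libraries at chromosome 4, 29975393 to 29975616, 689 kb from the lncRNA gene 4930556G01Rik and 1008 kb from Epha7, which codes for an ephrin receptor. It scored 576 in even replicate 2, and the odd libraries gave 3100 (replicate 1) and 483 (replicate 2). The closest even and odd peaks had centres 3 bp apart. Even replicate 1, the library with most peaks, had none within 74530 bp. The next, 633 kb from a gene at chromosome 3, 42611051 to 42611429, had the same 3 libraries, with scores of 437, 3100 and 221. The other 3 of the 5 farthest regions had 2 libraries each. They lay 573 kb from a gene on chromosome 1 (141881454 to 141881876), 559 kb on chromosome 4 (30105316 to 30105929) and 497 kb on chromosome 5 (47137566 to 47137818), where the nearest protein-coding gene was Slit2, a gene for an axon guidance ligand, at 844 kb.

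By kind, the nearest gene was a lncRNA gene for 700 regions (33.0%), a protein-coding gene for 650 (30.7%) and a pseudogene for 603 (28.5%). Among all gene-far regions these shares were 32.1%, 29.1% and 30.7%. Small nucleolar RNA genes were nearest to 79 regions (5.86% of gene-far regions nearest to such genes) and small nuclear RNA genes to 62 (5.02%). MicroRNA genes were nearest to 14 (6.09%) and tRNA genes to 4 (5%). These shares were close to the 5.71% of all gene-far regions. Even-odd regions made up 6.01% of the gene-far regions nearest to a protein-coding gene, 5.87% of those nearest to a lncRNA gene and 5.30% of those nearest to a pseudogene. Protein-coding genes stood on both sides of 275 regions (13.0%, against 11.8% of all gene-far regions) and on neither side of 1106 (52.2%, against 53.7%).

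The genes whose surroundings held these regions were looked at by list, each region being given to its nearest protein-coding gene at whatever distance. On chromosomes 1 to 19, 1507 protein-coding genes (7.29%) were nearest to at least 1 even-odd region, or 20.6% of the 7321 genes nearest to any gene-far region. A gene in a long gene-free stretch has more gene-far regions and so more chances, and each list is therefore read by the share of its gene-far regions that were even-odd, against 5.71% of all. Wilson 95% intervals cover counting error only, and nearest in position does not show that a region acts on a gene.

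Developmental transcription factor genes, which often stand in gene-poor surroundings rich in enhancers, had 77 even-odd regions of 1119 gene-far regions (6.88%, interval 5.54 to 8.52), beside 48 of 110 genes. Neural adhesion and synapse genes had 127 of 2756 (4.61%, interval 3.89 to 5.46), beside 54 of 91 genes. The interval of the first holds the 5.71% of all gene-far regions, and that of the second lies below it. Even-odd regions beside adhesion genes lay a median of 473 kb from the gene, against 196 kb beside developmental factors and 74.2 kb in all. In gene-free intervals over 500 kb, whatever the gene, 4.51% of gene-far regions were even-odd. Whether the lower share belongs to adhesion genes or to long gene-free surroundings was not tested. With the joined regions kept and the peaks of even replicate 1 dropped, developmental factors had 2.56% and adhesion genes 1.84%, against 2.35% of all. That left 21 and 39 regions. Counts by list and by stretch without a library were made in this way, whereas other counts without a library come from joining the peaks anew. Of the regions beside developmental factors, 18 (23.4%) had 3 libraries, against 32.3% beside adhesion genes and 31.9% of all.

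Tshz3, which codes for a zinc finger factor needed for ureter smooth muscle, was nearest to 3 even-odd regions of only 6 gene-far ones. All 3 had even replicate 1 with odd replicate 2, at chromosome 7, 36854829 to 36855263, 36974586 to 36975261 and 37003382 to 37003649, with 3100 in the first library and 234, 109 and 324 in the second. The 3 regions thus had the same pair of libraries, at 81.5, 201 and 230 kb from the gene. Pou3f2, a neural POU factor gene, had 4 of 18 and Maf, a basic leucine zipper factor gene, 5 of 36.

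Irx5, an Iroquois homeobox gene, had 4 of 29, and between Irx5 and its neighbour Irx6 lay 4 even-odd regions in 313 kb without a gene. The regions at chromosome 8, 92385196 to 92385717, 92432742 to 92433652 and 92484869 to 92485265 had even replicate 2 scores of 185, 205 and 196, below the list's median of 265. The one nearest to Irx6, at 92607174 to 92607871, had 2268 in even replicate 1 and 149.6 in odd replicate 2. Odd replicate 1 scored 3100 at 92385196 and 92484869, and odd replicate 2 scored 107 at 92432742 and 122 at 92484869, below its list's median of 221. Their peaks were thus low-scoring in the replicate 2 lists, and the even replicate 1 score of 2268 was at percentile 5.98 of its list.

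Among adhesion genes, the protocadherin gene Pcdh7 was nearest to 9 even-odd regions of 106 gene-far ones, the most of any gene outside the dense stretches described below. They ranged from 64.8 kb to 1609 kb from the gene. Even replicate 1 was in 8 of them, odd replicate 1 in 5, odd replicate 2 in 5 and even replicate 2 in 2. Cadherin genes Cdh11 and Cdh8 had 7 each, of 102 and 106. At Cdh11 the region 75.8 kb away (chromosome 8, 102556147 to 102556535) scored 3100 in even replicate 1, 819.7 in even replicate 2 and 659 in odd replicate 2. All 7 regions at Cdh8 had odd replicate 2 and none had odd replicate 1, while at Cdh11 each odd library was in 4.

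For podocyte genes, 10 of 167 gene-far regions were even-odd (5.99%, interval 3.28 to 10.7), beside 7 of 42 genes, close to the 5.71% of all gene-far regions. Only 1 of the 10 had 3 libraries, at chromosome 14, 98204886 to 98205364, 35.4 kb from Dach1, which codes for a transcriptional repressor of podocytes. It scored 3100 in both replicates 1 and 342 in odd replicate 2. Magi2, which codes for a scaffold protein at the slit diaphragm, had 2 regions, 364 kb and 141 kb away. Kirrel3, a relative of the slit diaphragm protein nephrin, also had 2, at 373 kb and 57.1 kb, and Tjp1, the gene of the junction protein ZO, had 1 at 18.4 kb. The podocyte count rested on even replicate 1, without which 1 region remained, and on odd replicate 2, without which 3 remained.

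Genes of other kidney cells had 22 of 312 (7.05%, interval 4.70 to 10.4), beside 9 of 40 genes. Cdh6, a cadherin gene of the proximal tubule, had 6 of 89, Cdh5, the endothelial cadherin gene, 4 of 28, Osr1, a regulator of early kidney progenitors, 3 of 22, and Gata3, a collecting duct factor gene, 3 of 47. At Cdh6, odd replicate 2 scored 1051 at chromosome 15, 13272950 to 13273395, with 3100 in even replicate 1, the highest odd replicate 2 score among the 6. Without odd replicate 2, 8 of the 22 regions remained, and without even replicate 1, 7.

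Chromatin regulators had 2 of 28 (7.14%), namely 1 region each at Mtf2 and Jarid2, cofactors of Polycomb repressive complexes. The region at Mtf2 (chromosome 5, 108045826 to 108046283) had 3100 in both replicates 1 and 163 in odd replicate 2, and that at Jarid2 (chromosome 13, 44650299 to 44650783) had 3100 in both replicates 1. Partners of the coactivator PGC-1 had 3 of 87 (3.45%). For Ppargc1a itself, which codes for the regulator of mitochondrial biogenesis PGC-1alpha, 1 of 24 gene-far regions was even-odd, at chromosome 5, 51303465 to 51304101. It lay 150.5 kb from the gene, with 2249.8 in even replicate 1 and 3100 in odd replicate 1. Its even and odd peaks shared only 34 bp, 16.3% of the shorter peak, with centres 301.5 bp apart. The even replicate 1 score was at percentile 5.76 of its list. Esrrb and Mef2c had 1 region each. Receptor genes of smell and pheromones had 34 of 793 (4.29%, interval 3.08 to 5.93), beside 31 of 1473 genes. Counts of 2 and 3 regions are too few to set against that of all gene-far regions.

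**Figure D3:**
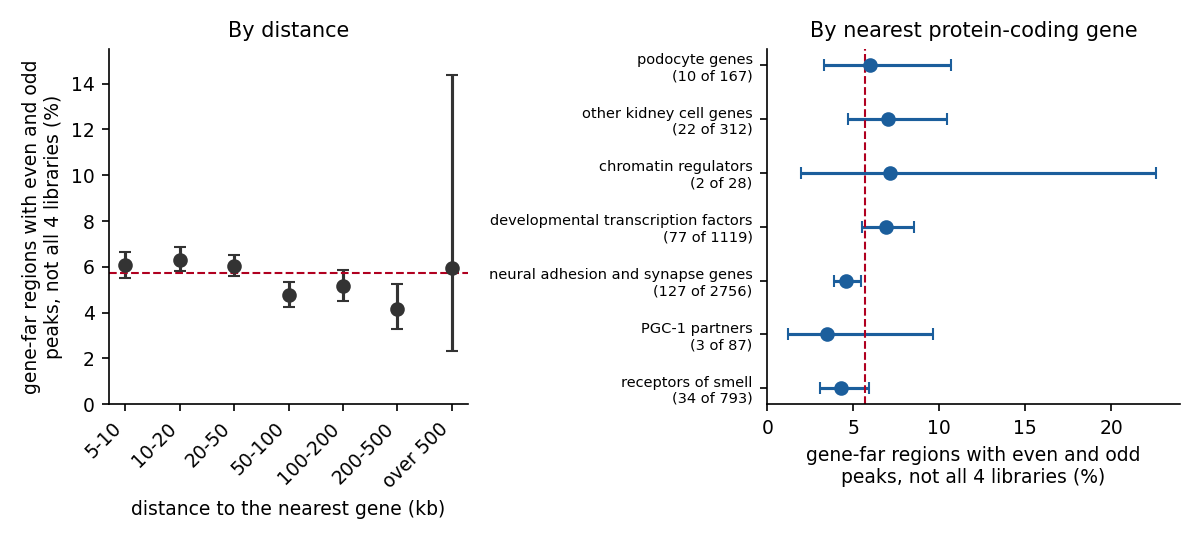
Percent of gene-far regions that were even-odd (points, with Wilson 95% intervals), by distance to the nearest gene (left, x axis in kb) and by list of the nearest protein-coding gene (right, even-odd regions of gene-far regions in brackets), with the 5.71% of all as a dashed line. Developmental transcription factors lie at 6.88% and neural adhesion and synapse genes at 4.61%.

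Most even-odd regions stood alone. No other lay within 50 kb of 1721 of them (81.2%), and 398 (18.8%) had a neighbour that near. That number was 99 of 1115 (8.88%) when odd replicate 2 was left out and 124 of 636 (19.5%) without even replicate 1. It was 200 of 1353 (14.8%) without odd replicate 1 and 262 of 1789 (14.6%) without even replicate 2. The planned share for gene-far regions of 1 library is not given, so these counts describe spacing alone. Of the regions, 2114 fell into 1737 gene-free intervals between neighbouring genes, of which 1492 held 1. Of the 182 gene-free intervals over 500 kb that held a gene-far region, 90 held no even-odd region, and 4.51% of their gene-far regions were even-odd. Outside the dense stretches, 3 intervals held 5. One of these, 232 kb between Alk, a receptor tyrosine kinase gene, and Ypel5 on chromosome 17, had 5 even-odd regions among only 8 gene-far ones. Its regions at 72700203 to 72700537 and 72701224 to 72701667 lay within 1 kb of each other, the first with even replicate 1 and odd replicate 2 (3100 and 487), the second with even and odd replicate 1 (3100 in both). Another, 1272 kb between the pseudogenes Gm7899 and Gm9723 on chromosome 3, had 4 regions of 3 libraries among its 5. These intervals were picked after their values were seen.

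In 7 stretches, 5 or more even-odd regions followed each other with gaps of at most 50 kb. They held 87 regions (4.11%) in 580 kb, and 5 of them, with 67 regions, lay between 19769388 and 20710955 of chromosome 8. There the nearest genes were predicted genes and pseudogenes such as Gm20778, Gm21112 and Gm46074. The longest run had 25 even-odd regions in 161 kb at 19962351 to 20123713, out of 51 gene-far ones. The next had 18 in 52.6 kb at 20658389 to 20710955, out of 28. A smaller one of 5 lay on chromosome 5, 15006695 to 15040379, near Gm17019. By gene, 9530057J20Rik was nearest to 25 even-odd regions of 59 gene-far ones, Gm21119 to 20 of 33, Gm15319 to 11 of 32 and Gm40469 to 8 of 24, and all of these but 3 of Gm15319 lay in the stretches.

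The peaks of the stretches scored low in both replicate 2 lists. Median scores of the 87 regions were 138 in even replicate 2 and 115 in odd replicate 2, against 312 and 317 for the 2032 even-odd regions outside. In even replicate 1 the even-odd regions of the longest run had a median of 3100 and those of the next a median of 1516. In the other stretches these medians were 2633, 3100, 1633, 1632 and 1413. Over all even replicate 1 peaks of the longest run the median was 2051, against 3100 in the whole list. Even and odd replicate 2 alone formed 38 of the 87 (43.7%), against 133 of the 2032 (6.55%), and both even libraries with odd replicate 2 formed another 26. Odd replicate 1 contributed little, with 4 of the 25 regions of the longest run and 0 of the 18 of the next. Without odd replicate 2 these runs kept 4 and 0 regions, and without even replicate 2 they kept 10 and 11.

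The stretch with the next most regions took up 136 kb of chromosome 6, 114494481 to 114630561, in the gene-free interval between Hrh1, which codes for a histamine receptor, and Atg7, which codes for an enzyme of autophagy. The interval runs from 114483298 to 114643127, and the stretch fills most of it. It held 50 gene-far regions, of which 15 were even-odd and a further 2 were in all 4 libraries. Even replicate 1 had 9 peaks there, even replicate 2 had 30, odd replicate 1 had 12 and odd replicate 2 had 28. In the window of equal length on the low-coordinate side the numbers were 1, 2, 2 and 2, and on the high-coordinate side 1, 2, 1 and 2. The stretch was picked as a dense run and both windows lie mostly inside Hrh1 or Atg7, so these numbers describe it and are no test of density.

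Scores in this stretch were low. The median of its peaks was 97.9 in even replicate 2 and 104 in odd replicate 2, where the whole lists have medians of 265 and 221, and 96.7% and 92.9% of the peaks lay below those. In even replicate 1 the median was 2837, against 3100. Of the 15 even-odd regions, 7 had only even and odd replicate 2. Their even replicate 2 scores ran from 74.6 to 172 and their odd replicate 2 scores from 58.5 to 164. The region at 114598574 to 114599048, for example, had 141 and 102. Leaving out even replicate 2 left 6 of the 15 and leaving out odd replicate 2 left 5, while 12 remained without even replicate 1 and 11 without odd replicate 1.

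**Figure D4:**
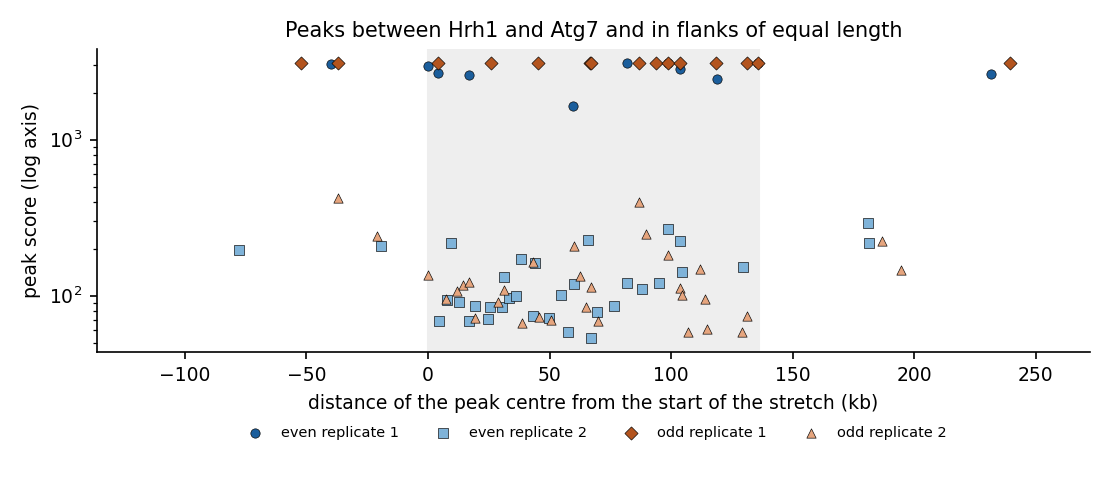
Peak score (y axis, log scale, the authors' unit) of every peak of the 4 libraries by distance of its centre from the start of the stretch between Hrh1 and Atg7 (x axis, kb), with the stretch shaded and flanks of equal length. Even replicate 2 has 30 peaks and odd replicate 2 has 28 in the shaded part, against 2 each in either flank, where Hrh1 and Atg7 lie, and most lie under their lists' medians of 265 and 221.

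The widest even-odd regions also lay apart from the rest. A region of 32813 bp made of 10 peaks lay at chromosome 9, 3005568 to 3038380, with a neighbour of 5551 bp at 2999913 to 3005463. Both were at the low-coordinate end of that chromosome. Their nearest gene was the microRNA gene Mir101c, 16.7 and 36.0 kb from their centres. The edge of the wider region lay less than 5 kb from Mir101c, so this region counted as gene-far by its centre alone. With the whole region required to lie more than 5 kb from every gene, 2090 even-odd regions remained. Both regions at this chromosome end had only even and odd replicate 1, with 3100 in each. The nearest peaks of even and odd replicate 2 were over 100 kb away. Both replicates 1 were called against input 1. Of the other 3 widest, 2 lay in the chromosome 8 stretches and 1, of 4232 bp, at chromosome 14, 19415588 to 19419819, near the pseudogene Gm9637.

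Chromosome 8 had the highest share of even-odd regions among its gene-far regions, 249 of 3103 (8.02%, interval 7.12 to 9.03), followed by chromosome 6 with 7.04% and chromosome 5 with 6.53%. The lowest was chromosome 10, with 75 of 1700 (4.41%). Without the 7 stretches, chromosome 8 stood at 6.14% (182 regions), chromosome 6 at 6.45% and chromosome 5 at 6.32%, against 5.51% of all gene-far regions. Chromosomes 8, 15 and 19 together held 436 even-odd regions (20.6%), against 17.3% of all gene-far regions, and 18.2% without the stretches.

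**Figure D5:**
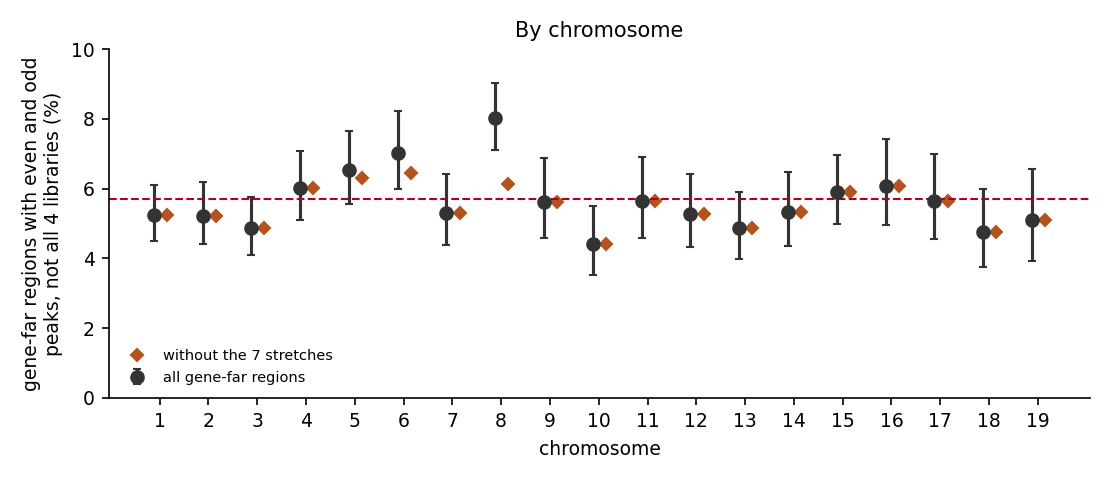
Percent of gene-far regions that were even-odd (y axis) on chromosomes 1 to 19 (x axis), circles for all gene-far regions with Wilson 95% intervals and diamonds without the 7 stretches, with the 5.71% of all as a dashed line. Chromosome 8 stands at 8.02% with and at 6.14% without its stretches.

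Libraries that lacked a peak in an even-odd region seldom had one close by. Of the 1475 regions without even replicate 2, 34 (2.31%) had a peak of that library within 1 kb, against 2.30% of gene-far regions of 1 other library. For odd replicate 1 the shares were 2.51% of 998 regions against 2.12%, and for odd replicate 2 they were 3.66% of 765 against 3.03%. For even replicate 1 they were 7.38% of 325 regions against 3.198%, but 3.55% against 3.14% outside the stretches. Inside the stretches the absent library was near more often, with a peak within 1 kb of 14 of 43 regions for even replicate 1, 8 of 16 for even replicate 2, 7 of 72 for odd replicate 1 and 3 of 10 for odd replicate 2. Outside them the shares were 1.78% against 2.17% for even replicate 2, 1.94% against 2.08% for odd replicate 1 and 3.31% against 2.90% for odd replicate 2. Regions of all 4 libraries lay within 50 kb of 5.80% of the even-odd regions, against 2.76% of gene-far regions of 1 library, and of 2.61% against 2.55% outside the stretches.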

How the data were processed

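The submitters' processing notes name Bowtie2 2.1.0 and mm10. Per the file names, the authors called peaks for each pulldown against the input of the same number, without pooling. Peak names start with MACS, but for the version, the threshold and the treatment of repeated reads the answer is "not given in the sources used here". Each peak's score is the authors' deposited value on an unstated scale, piling up at 3100. The depth behind a peak is unknown, since the lists hold no counts. The joined series-wide list was not used.

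Here peaks overlapping by at least 1 bp were joined, and distances ran from a region's centre to 49943 RefSeq gene spans (GRCm38.p6), which hold no strand or exons. Positions are 1-based. Genome sequence was not used here, so no sequence of the regions is printed and the planned look at base composition was not made. None of the regions overlapped a RefSeq promoter window. Shares carry Wilson 95% intervals. The planned exact permutation test of library shares is not reported, since the rule used the same overlaps. The steps were tested on simulated data with planted regions. The labels do not tell separate cultures from repeat pulldowns, and the spread between replicates may therefore be technical.

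The regions, lists and rules for naming were chosen with earlier results of these data known. Named were the 10 leading regions of 3 libraries, the 5 farthest, the 5 widest, the 3 longest runs, 3 on each side of 5 kb, the genes nearest to most regions, and up to 4 genes a list. Other intervals and genes were picked after their values were seen, as said beside them. Tables and tests used scipy 1.17.1, pandas 2.3.3 and numpy 2.4.6 under Python 3.11.15, and figures matplotlib 3.10.9.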

Additional observations from a re-analysis of the deposited data

How the results depend on the processing

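In all, 8 results were recomputed under 14 settings, giving 110 values, and 65 stayed within their limit (1.5 times for the count, the Wilson interval for shares, 1 SD over libraries for the distance). With an overlap of 50% of both peaks, 43.3% of 2-library regions had the same number, 4.27% of gene-far regions were even-odd and 15.4% had a neighbour within 50 kb. With peaks at or above their list's median score these were 51.5%, 5.97% and 11.2%, the median distance was 24.6 kb, and chromosomes 8, 15 and 19 held 17.4%. In both replicate 1 lists that median is 3100, where scores pile up. The setting therefore removed a smaller share of replicate 1 peaks than of replicate 2 peaks. Beyond 2 kb, the distance was 18.2 kb, 34.1% were nearest to a protein-coding gene and 20.8% had a neighbour. Beyond 10 kb, the first of these were 31.8 kb and 27.6%. Beyond 50 kb, 569 regions remained, at 96.7 kb, with 18.98% nearest to a protein-coding gene, 49.5% of the same number, 4.81% even-odd and 14.1% with a neighbour. With protein-coding genes alone, the distance was 61.1 kb, 6.05% were even-odd and 24.4% had a neighbour, and the kind of nearest gene has no value. With regions of all 4 libraries kept, 6.32% were included and 28.8% had 3 libraries. Without chromosomes 8, 15 and 19, 14.2% had a neighbour, and the share on those chromosomes has no value. Without the 7 stretches, a setting chosen after seeing the data, 15.3% had a neighbour and chromosomes 8, 15 and 19 held 18.2%. The cause of these shifts was not tested beyond what each setting removes by construction.

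With each library left out in turn, the regions numbered 636 to 1789, their median distance was 22.3 to 25.015 kb, 8.65% to 16.8% had 3 libraries, 18.9% to 84.4% of 2-library regions had the same number, 2.32% to 5.92% of gene-far regions were even-odd, 29.4% to 30.9% were nearest to a protein-coding gene, 18.9% to 26.3% lay on chromosomes 8, 15 and 19, and 8.88% to 19.5% had a neighbour. No paired analysis was possible because these results come from no test, and the replicate numbers pair libraries only through a shared input.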

Other observations

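Chromosomes X and Y, outside the rule, held further even-odd regions over 5 kb from every gene. On X there were 254 among 3815 gene-far regions (6.66%), and on Y 41 among 270 (15.2%). Even replicate 2 was in 137 of the 254 on X. On Y, odd replicate 1 was in 34 of the 41 and even replicate 1 in 28, and the replicate 2 libraries were in 17 (even) and 16 (odd).

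Beyond the lists, Got2, which codes for a mitochondrial aspartate aminotransferase, was the nearest protein-coding gene to 7 even-odd regions of 62 gene-far ones, at a median of 906 kb for the latter. One of them, at chromosome 8, 96431225 to 96431826, scored 3100 in even replicate 1, 1095 in even replicate 2 and 1581 in odd replicate 2. Another, at 96027539 to 96028074, scored 1459 in odd replicate 2 with 2991 in even replicate 1. The gene 4931417E11Rik on chromosome 6 also had 7, of 50, with both replicates 1 in 6 each.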
